A study of Mus musculus with 12 samples.

Results

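Gene expression of leukemic LTHSC, long-term hematopoietic stem cells, from Cre-negative mice was described from 4 RNA sequencing libraries, the No_Cre replicates 1 to 4, which are 4 of the 12 libraries of the series. They were chosen by their group label alone, and every gene of the count table was described by its absolute level, with no comparison between groups. The No_Cre mice were C57BL/6 mice that carried no Cre recombinase and had chronic myeloid leukemia (CML). The cells came from bone marrow and were isolated by flow cytometry with what the labels call conventional surface markers, which the labels do not list. RNA was amplified by the SMARTer Ultra Low Input method, and libraries were made with Nextera XT. The labels call the animals both recipient and primary mice, and give neither the leukemia model nor the Cxcl12 genotype of the No_Cre mice. The title of the series concerns Cxcl12 of mesenchymal niche cells and how it bears on quiescent, treatment-resistant leukemia stem cells, and the No_Cre mice stand in it as animals without a Cre line.

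Long-term hematopoietic stem cells sit at the top of blood formation in bone marrow, where they divide rarely and can rebuild all blood lineages. In CML the fusion kinase BCR-ABL1 arises in such a cell, signals through RAS, PI3K and STAT5, and drives an excess of granulocytes, while leukemic stem cells persist in a niche of stromal and endothelial cells that supply Cxcl12 and Kit ligand. An expression profile of sorted cells therefore holds genes of stem cell identity, genes of the lineages that the cells or neighbouring cells make, and the signalling and metabolic genes in use.

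Levels are given as CPM, the counts of a gene scaled to a common library total, listed in the order of replicates 1 to 4, or as mean ± SD (n = 4). Levels of different genes are set against each other per length, as TPM, a transcript level scaled to a common total after division by length, except where an order or share by counts is named as such. A gene is called present at 1 CPM or more in each of the 4 libraries, absent under 0.1 CPM in each, and low between these bounds. Total counts per library were 23830506, 24007569, 20741740 and 19988050, so that 1 CPM stood for 19.99 to 24.01 counts and a count of 0 allows a level of up to 0.125 to 0.150 CPM (3 counts, counting error only). Of 48795 genes in the table, 12215 were present. Among 21772 protein-coding genes, 11516 were present (52.9%), 2782 were low and 7474 were absent, of which 6015 had no count in any library. The median over all 21772 protein-coding genes was 1.38 TPM, and the median over the 11516 present ones was 17.2 TPM. The 4 libraries were close to each other: Pearson's r of log2(CPM + 1) over the present genes was 0.997 to 0.998 for the 6 pairs, and the biological coefficient of variation, the spread beyond counting error estimated with edgeR, was 3.45%. No pair of libraries agreed within sampling noise, since the chi-square statistic of their counts was 2.24 to 3.84 per gene. The design text calls the 4 samples biological replicates, but the labels do not say that each came from a separate animal, so an SD here measures the spread between these 4 libraries, which may be technical.

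The 5 genes given as markers of the population were all present, which is 5 of 5 beside 52.9% of protein-coding genes. Kit, the stem cell factor receptor (chr5:75574916-75656722, plus strand, GRCm38), had 907, 934, 942 and 940.3 CPM. Ly6a, which encodes the stem cell surface protein Sca-1 (chr15:74994877-74998031), had 223, 252, 237 and 225 CPM. Mecom, a transcription factor needed for long-term stem cells (chr3:29951296-30548008), had 101, 105, 101 and 100.1 CPM. All 4 libraries held these 3 genes at like levels. Procr, the endothelial protein C receptor and a surface marker of dormant stem cells (chr2:155751117-155755471), had 80.8, 76.0, 81.1 and 85.6 CPM. Mpo, the myeloperoxidase of neutrophil granules and their precursors (chr11:87793581-87804413), had 4883, 4728, 4717 and 4855 CPM. Coordinates are those of the whole gene in GENCODE M21, to which the counts of a gene belong by its identifier. Per length, Mpo stood at 3158 ± 68.999 TPM, Ly6a at 438 ± 23.1 TPM, Kit at 236 ± 3.99 TPM, Procr at 89.8 ± 4.73 TPM and Mecom at 18.5 ± 0.328 TPM. These levels put Mpo above 99.9% of the present protein-coding genes, Ly6a above 98.5%, Kit above 96.3%, Procr above 86.7% and Mecom above 51.7%. Of the stem cell markers, Mecom was thus close to the middle of the present genes, and Mpo, a granulocyte gene, was the highest of the 5.

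The libraries were led by immunoglobulin, granule protein and immediate early genes. The 12 most abundant genes carried 10% of all counts, the 142 most abundant 25% and the 956 most abundant 50%. The 20 most abundant genes took 12.3, 12.5, 12.2 and 12.3% of counts in replicates 1 to 4. Ighg1, the constant region of the IgG1 heavy chain, was first by counts with 33028, 34564, 32275 and 32491 CPM. Igkc, the constant region of the kappa light chain, was second with 19265, 19333, 18904 and 18834 CPM. Iglc1, a lambda constant region, had 4135 ± 143 CPM and Igkv10-96, a kappa variable segment, 2423 ± 130.2 CPM. The remaining 16 of these 20 genes were protein-coding genes outside the immunoglobulin loci. Immunoglobulins are made by B cells and plasma cells, and in bulk libraries few cells with much of an RNA cannot be told apart from many cells with little.

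Among those 16, 6 code for proteins of neutrophil granules or cytosol. Ngp, the neutrophilic granule protein, had 7832, 8181, 8168 and 7957 CPM, Ltf, lactotransferrin of secondary granules, 5081, 5236, 5087 and 5149.8 CPM, and S100a9, a calcium-binding protein of the neutrophil cytosol, 5024, 5173, 5159.8 and 4991 CPM. Mpo is given above. Camp, the cathelicidin precursor, had 2998 ± 55.3 CPM and Lyz2, lysozyme, 2236 ± 53.5 CPM. Slpi, a secreted inhibitor of neutrophil elastase, had 3441 ± 50.5 CPM. The AP-1 subunits Fos and Jun had 6631, 6353, 6490.2 and 6732 CPM and 5171, 4718, 5131 and 5415 CPM, and Dusp1, a phosphatase that switches off MAP kinases, had 3445 ± 36.2 CPM. The other genes were Adgrg1, an adhesion receptor known as GPR56 that marks blood stem cells, with 4153, 4041, 3945 and 4083 CPM, the class I histocompatibility genes H2-D1 with 3553 ± 71.8 CPM and H2-K1 with 2219.6 ± 40.7 CPM, Serinc3 with 2947 ± 91.8 CPM, the glutathione peroxidase Gpx1 with 2531 ± 84.5 CPM and cytoplasmic actin, Actb, with 2403 ± 36.9 CPM. Across the 20 genes the coefficient of variation between libraries ran from 1.049% for Dusp1 to 5.66% for Jun.

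**Figure D1:**
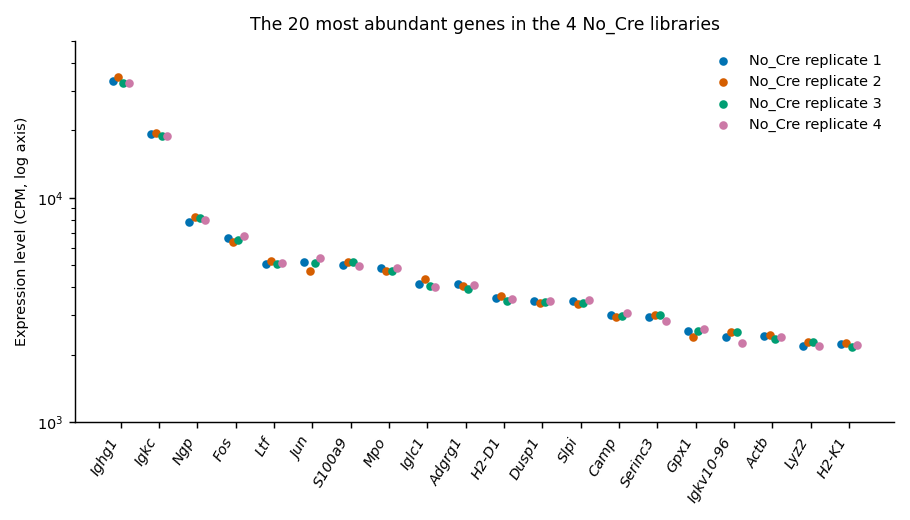
The 20 most abundant genes (x axis) by level in CPM (y axis, log), with 1 point for each of the 4 No_Cre libraries. The points of a gene lie close together, with Ighg1 and Igkc standing above the rest and Ngp next.

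Ranked per length, the first protein-coding genes were S100a9 at 21969 ± 308 TPM, Ngp at 14822 ± 260.0 TPM, Camp at 8917 ± 205 TPM, S100a8, the partner of S100a9, at 6856 ± 279.5 TPM, Slpi at 6574 ± 126 TPM and Fos at 6281 ± 187 TPM. The other 14 of the 20 highest genes by TPM were immunoglobulin segments and constant regions, among them Igkc at 80871 ± 916 TPM, Ighg1 at 28778 ± 802 TPM, Iglc1 at 20531 ± 629 TPM and the kappa variable segment Igkv19-93 at 13506 ± 463 TPM. Igkj1, a joining segment of only 38 bases, reached 31071 ± 380.4 TPM from 524 ± 8.50 CPM, because a TPM divides by so short a length. The joining segments Igkj2, Igkj5, Iglj1, Ighj1 and Ighj2, likewise short, were among these 14 as well, as were the variable segments Iglv1, Ighv14-2 and Ighv1-81.

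Each count of present list genes here and below stands beside the 52.9% of all protein-coding genes that were present. Lists and members were chosen with earlier results of these data known, so these counts are a description and no test. All 35 of 35 genes of the long-term stem cell list were present, with a median of 36.2 TPM. The lowest 2 were Rarb, a retinoic acid receptor, with 2.48, 2.79, 3.71 and 2.65 CPM and Ndn, necdin, a growth suppressor, with 2.69, 2.25, 2.99 and 4.002 CPM. Ordered per length, the list was led by Ifitm3 at 1652 ± 35.9 TPM and Ifitm1 at 1034 ± 26.9 TPM, membrane proteins that block virus entry. The glutathione transferase Gstm1 at 534 ± 13.97 TPM and Ly6a followed. The tetraspanin Cd9 had 269 ± 4.49 CPM, the membrane protein Pdzk1ip1 189.7 ± 6.57 CPM, the adhesion molecule Esam 192 ± 7.04 CPM and the cytokine lymphotoxin beta, Ltb, 110.2 ± 6.13 CPM.

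The vascular genes Tek, Vwf and Robo4 of the list were lower per length than these, at 36.2, 15.97 and 20.9 TPM. Tek, the receptor of angiopoietin, had 69.4, 81.6, 79.1 and 72.5 CPM, and its ligand Angpt1 196, 198, 204 and 190.0 CPM, so receptor and ligand were both transcribed in the sorted population. Vwf, von Willebrand factor, which marks platelet-biased stem cells, had 117, 115, 107 and 116 CPM. Robo4 had 49.1 ± 2.13 CPM, Clec1a 40.5 ± 0.346 CPM, the signalling lymphocytic activation molecule Slamf1, which is CD150, 55.9 ± 0.810 CPM, and the netrin receptor family member Neo1 7.93 ± 0.404 CPM. Myct1 had 85.8 ± 4.14 CPM, the ion channel Trpc6 38.9 ± 2.51 CPM, Ctnnal1 36.7 ± 1.01 CPM, Fgd5, which marks mouse stem cells as a reporter gene, 29.8 ± 1.67 CPM, Gprasp2 10.1 ± 0.0866 CPM and the sulfotransferase Sult1a1 19.8 ± 0.764 CPM. Cish, a STAT5 target that damps cytokine signals, had 58.3 ± 3.58 CPM.

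**Figure D2:**
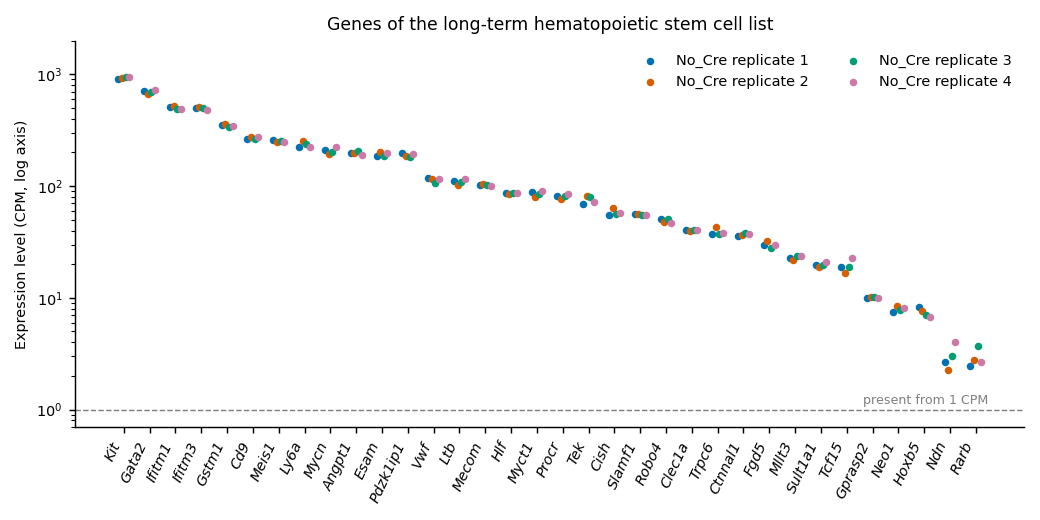
Level in CPM (y axis, log) of 34 of the 35 genes of the long-term stem cell list (x axis, by mean), with 1 point for each of the 4 No_Cre libraries. All points lie above the line at 1 CPM, and the libraries spread visibly only for Ndn, Rarb and Tcf15 at the low end.

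Of 33 stem cell transcription factors 32 were present, with a median of 20.8 TPM. Per length the highest were Lmo2, a bridging factor of the stem cell complex, at 655 ± 8.10 TPM, Gata2 at 292 ± 13.04 TPM and Gfi1b, a repressor of stem cell and erythroid genes, at 244 ± 6.71 TPM. Lmo2 had 639, 632, 626 and 619.9 CPM and Gata2 711, 665, 691 and 730.4 CPM. The partners of Lmo2 in that complex were present too, with Tal1 at 40.5 ± 1.59 CPM, Lyl1 at 13.3 ± 0.799 CPM, Runx1 at 119 ± 6.88 CPM, Fli1 at 160.1 ± 5.86 CPM and Erg at 29.2 ± 2.54 CPM. Mycn, a MYC family member of stem cells, had 211, 192, 202 and 225 CPM, with the highest value in replicate 4. Gfi1, the repressor that keeps stem cells from dividing, had 78.9 ± 1.87 CPM, Etv6 371 ± 9.38 CPM, Sox4 297 ± 29.1 CPM and Myb, a driver of progenitors, 294 ± 9.79 CPM.

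The homeobox genes ranged widely. Meis1, the cofactor of HOX proteins, had 257, 248, 255 and 247 CPM and Nkx2-3 63.8 ± 3.06 CPM. Hoxa9 had 46.4 ± 3.68 CPM, Hoxa10 38.0 ± 1.43 CPM, Hoxa7 30.5 ± 1.94 CPM, Hoxa5 5.35 ± 1.054 CPM and Hoxb5, a marker of long-term stem cells in the mouse, 7.43 ± 0.676 CPM. Hoxb4, which expands stem cells when overexpressed, was the only one of the 33 below the bound, with 0.923, 0.4998, 0.482 and 0.800 CPM. Pbx3 had 21.2 ± 1.11 CPM. Hlf, a stem cell factor of the PAR bZIP family, had 87.3, 85.1, 87.6 and 87.4 CPM, Tcf15, linked to quiescence, 18.9, 16.6, 18.8 and 22.8 CPM, and Mllt3, a transcription elongation factor that maintains stem cells, 22.95 ± 0.806 CPM. Prdm16 had 25.9 ± 2.08 CPM, Zfp521 48.6 ± 3.35 CPM, Bcl11a 102.8 ± 1.37 CPM, the polycomb gene Bmi1 18.04 ± 1.49 CPM, Zfx 17.3 ± 1.29 CPM, Ikzf2 10.9 ± 0.759 CPM and the chromatin protein Hmga2 3.10 ± 0.461 CPM.

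Of 25 genes that code for surface markers used in sorting, 22 were present. The markers that place a cell in the stem cell gate and those that place it outside were both found. CD34, low on adult mouse long-term stem cells and present on later progenitors, was at 458, 457, 474 and 467 CPM. Flt3, the receptor of multipotent progenitors, had 107, 114, 106 and 109 CPM. Slamf1 had 56.4, 56.7, 55.3 and 55.1 CPM. Cd48, which in mice is found on progenitors and not on long-term stem cells, had 35.5, 42.5, 37.9 and 35.3 CPM and stood higher than Slamf1 per length, at 71.7 ± 6.04 TPM and 20.5 ± 0.253 TPM. Itga2b, the CD41 integrin of megakaryocytes and of some stem cells, had 919, 876, 884 and 924 CPM. Cd27 had 176 ± 3.84 CPM, Cd244a 18.6 ± 1.202 CPM, Thy1 3.999 ± 0.504 CPM and the pan-leukocyte gene Ptprc 161 ± 3.47 CPM.

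Genes of the usual lineage cocktail ranged over all classes. Ly6g, the Gr-1 antigen of neutrophils, had 36.6, 38.5, 36.0 and 37.2 CPM, Itgam, which encodes Mac-1, 27.7 ± 1.58 CPM, Fcgr3 84.0 ± 0.359 CPM, Fcgr2b 28.1 ± 0.641 CPM and the transferrin receptor Tfrc 23.7 ± 2.46 CPM. Il7r, of early lymphoid cells, had 1.97 ± 0.197 CPM and Itga2 2.96 ± 0.455 CPM. The T cell genes were at the bottom, with Cd4 at 0.136 ± 0.0793 CPM, Cd8a at 0.0894 ± 0.0326 CPM and no count of Cd3e in any library.

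Of 18 antigens described on leukemic stem cells 15 were present, and 1 more, Cd99, had no match in the annotation. Per length the highest were Cd74, the invariant chain, at 724 ± 11.1 TPM, Cd52 at 229 ± 4.71 TPM and Cd47, the signal that restrains phagocytes, at 203 ± 6.93 TPM. Il1rap, the interleukin 1 coreceptor that is a surface marker of CML stem cells in humans, had 15.1, 14.04, 16.3 and 13.4 CPM. Dpp4, or CD26, which marks CML stem cells in humans, had 18.4, 19.3, 18.4 and 19.9 CPM. Both were present and below the median level of the present genes per length, at 2.92 and 6.79 TPM. Cd44 had 150.1 ± 8.98 CPM, Itga6 158 ± 10.5 CPM, Tspan3 147 ± 4.21 CPM, Clec12a 132 ± 3.77 CPM, Ifnar1 93.9 ± 0.995 CPM, Cd93 64.8 ± 1.23 CPM, Cd33 31.1 ± 1.179 CPM, Havcr2 15.5 ± 0.896 CPM and Il3ra 10.7 ± 1.22 CPM. Il2ra was low with 0.147 ± 0.144 CPM, Cd36 with 0.4004 ± 0.110 CPM and Siglech with 0.492 ± 0.165 CPM.

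Genes of later progenitors were also found. Of 20 multipotent progenitor genes 18 were present, led per length by Plac8 at 458 ± 8.94 TPM, Ly6c2 at 323 ± 5.05 TPM and Cd52. Rag1, the recombinase of lymphocytes, was absent at 0.0330 ± 0.0222 CPM.

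Cell cycle genes were present without exception, at 35 of 35 for S phase and 31 of 31 for G2 and mitosis, with medians of 67.8 and 42.1 TPM. The replication helicase subunits Mcm6 and Mcm3 stood at 395 ± 4.53 TPM and 381 ± 3.69 TPM, and the kinase Cdk4 at 460.1 ± 7.50 TPM. Mcm6 had 807, 814, 829 and 818 CPM and Cdk4 664, 679, 649.6 and 660.3 CPM. Of the mitotic genes, the anaphase activator Cdc20 was highest per length at 249 ± 4.16 TPM, before the cyclin Ccnb2 at 236 ± 3.11 TPM and the kinase Aurkb at 114 ± 1.55 TPM. Cdc20 had 209.8, 206, 203 and 207 CPM. Genes held to restrain division were also present in 26 of 28, with a median of 15.9 TPM. The highest of these, Dusp1 at 2346 ± 35.3 TPM, Zfp36, an RNA-binding protein that speeds mRNA decay, at 1355 ± 60.5 TPM, and the transcription factor Klf2 at 994 ± 58.4 TPM, belong at the same time to the immediate early genes. Because bulk libraries sum over cells, levels of both kinds cannot show whether they came from the same cells.

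Chromatin and survival genes were mostly present. Of 27 polycomb genes 26 were present, led by the histone-binding subunits Rbbp7 at 279.8 ± 7.31 TPM and Rbbp4 at 103.04 ± 2.37 TPM and by Phc2 at 59.2 ± 0.582 TPM, and AU022751, listed for the polycomb inhibitor EZHIP, had no count. Of 14 DNA methylation genes 13 were present, with the isocitrate dehydrogenase Idh2 at 448 ± 5.42 TPM, the maintenance methyltransferase Dnmt1 at 164 ± 2.48 TPM and its partner Uhrf1 at 122 ± 5.32 TPM. Of 17 BCL2 family genes 12 were present, led by the survival protein Mcl1 at 208 ± 7.47 TPM and the death proteins Bax at 75.2 ± 2.68 TPM and Bid at 72.7 ± 1.14 TPM, and Hrk had no count. Of 14 drug transporters 13 were present, with the nucleoside carrier Slc29a1 at 72.2 ± 1.66 TPM, Abcc1 at 27.4 ± 0.811 TPM and Abcc4 at 23.7 ± 1.07 TPM.

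**Figure D3:**
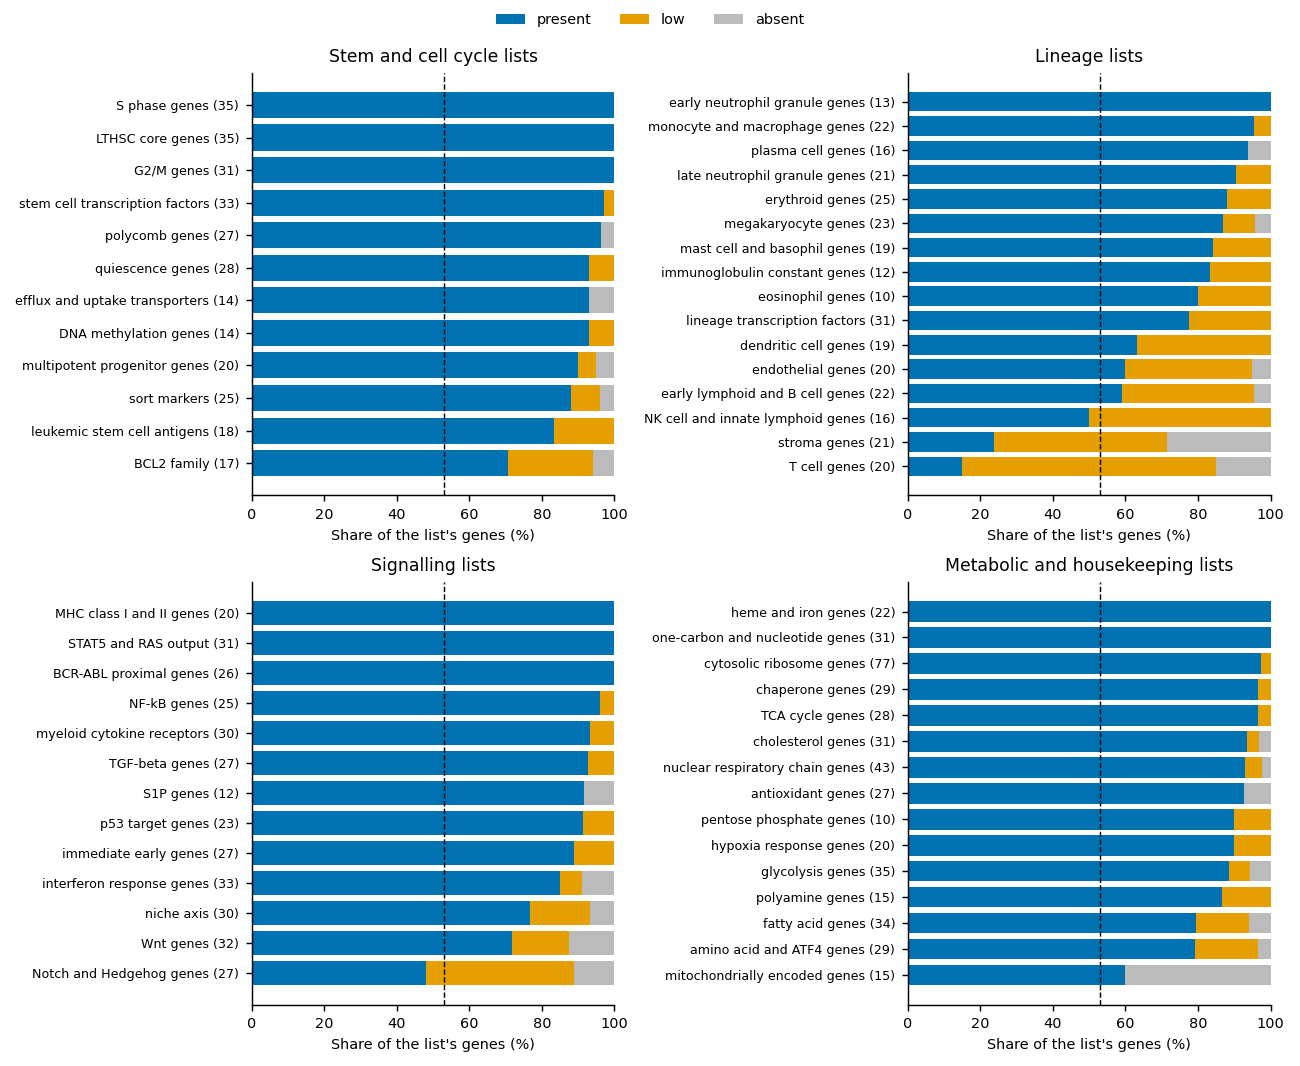
Share of the genes of each list (x axis, percent; gene number in brackets) that were present, low or absent in the 4 No_Cre libraries, in 4 classes of lists. The dashed line marks the 52.9% of all protein-coding genes that were present; the shares of T cell and stroma lists lie well below it and most stem cell, signalling and metabolic lists above it.

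The lists of neutrophil granule genes had the highest medians per length among the lineage lists, whereas immunoglobulin constant genes had the highest sum, 5.69 ± 0.140% of all counts. Of 13 genes in the early granule list all 13 were present, with summed levels of 10505, 10300.2, 10279.8 and 10457 CPM in replicates 1 to 4. The list median was 534 TPM, which is the level of Gstm1. That gene is also in the long-term stem cell list, so the early granule list is not limited to proteins of primary granules. Elane, neutrophil elastase, had 1961, 1926, 1898 and 1959 CPM and led per length at 4436 ± 83.0 TPM, before Mpo at 3158 TPM and Nkg7, a granule membrane protein, at 991 ± 11.999 TPM. Of 21 genes of late granules and mature neutrophils 19 were present, with sums of 30139, 30858, 30802 and 30266 CPM, 3.05 ± 0.0367% of all counts, and a median of 674 TPM. S100a9, Ngp and Camp led this list as they led all protein-coding genes. Surface genes of neutrophils in the same list were uneven. Cd177 stood at 674 ± 22.5 TPM, the list median, against 88.7 ± 2.37 TPM for Ly6g, 16.5 ± 0.996 TPM for the chemokine receptor Cxcr2 and 12.4 ± 0.658 TPM for Itgam, which shares 66.3% of its 50-base transcript windows with other genes. Cd177 and Cxcr2 were chosen after their values were seen.

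The promoters of late granule genes were read because these genes stood high together. RefSeq promoters (GRCm38.p6, from 250 bases before to 50 after the start of transcription, first listed promoter) were found for 19 of the 21 genes. The letters TTGCNNAA, a form of the sequence bound by C/EBP proteins, which drive granulocyte formation, were in 9 of 19 (47.4%) on either strand, and in 10.8% of 27025 promoters of the same length. The letters TATAAA were in 7 of 19 (36.8%), and in 14.2% of all promoters. The genes with TTGCNNAA were Fcnb, Lcn2, S100a9, Mmp8, Ngp, Ltf, Lyz1, Ly6g and Retnlg. The level ranged widely among them, from 1.81 TPM for Lyz1 to 21969 TPM for S100a9, and Camp and Lyz2 lacked the letters in this window. Below are promoters of 4 of the highest of them, 5′ to 3′ on the strand of the gene, with TTGCNNAA and TATAAA of either strand in capitals, S100a9 (chr3:90695672-90695971, minus strand), Ngp (chr9:110419558-110419857, plus strand), Lcn2 (chr2:32387690-32387989, minus strand) and Ltf (chr9:111019042-111019341, plus strand).
S100a9: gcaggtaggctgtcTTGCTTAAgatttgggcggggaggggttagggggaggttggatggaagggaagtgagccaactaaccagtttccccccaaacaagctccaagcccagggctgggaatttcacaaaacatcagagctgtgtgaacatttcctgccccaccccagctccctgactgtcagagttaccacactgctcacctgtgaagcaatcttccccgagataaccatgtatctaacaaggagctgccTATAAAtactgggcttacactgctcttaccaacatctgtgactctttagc
Ngp: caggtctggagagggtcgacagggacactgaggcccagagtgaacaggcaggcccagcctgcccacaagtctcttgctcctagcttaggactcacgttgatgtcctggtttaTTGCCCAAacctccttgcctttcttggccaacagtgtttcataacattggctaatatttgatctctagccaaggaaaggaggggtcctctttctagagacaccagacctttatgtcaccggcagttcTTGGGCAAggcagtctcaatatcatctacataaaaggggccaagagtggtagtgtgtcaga
Lcn2: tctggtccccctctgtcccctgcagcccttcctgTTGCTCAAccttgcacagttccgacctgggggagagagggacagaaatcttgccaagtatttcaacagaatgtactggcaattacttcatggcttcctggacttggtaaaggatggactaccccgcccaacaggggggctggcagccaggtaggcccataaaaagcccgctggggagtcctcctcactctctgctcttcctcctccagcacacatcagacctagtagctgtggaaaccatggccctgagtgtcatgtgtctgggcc
Ltf: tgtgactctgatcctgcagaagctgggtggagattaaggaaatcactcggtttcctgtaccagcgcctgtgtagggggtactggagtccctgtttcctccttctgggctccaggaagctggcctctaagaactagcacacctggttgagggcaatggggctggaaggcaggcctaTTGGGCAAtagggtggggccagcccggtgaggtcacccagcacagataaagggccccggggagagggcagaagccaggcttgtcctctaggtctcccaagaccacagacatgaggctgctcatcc

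Ngp holds the letters in both orientations, and S100a9 holds one match of each motif. Such matches are a description of the sequence, and no binding was measured here. In the early granule list, which also stood high, TTGCNNAA was in 2 of 10 promoters (20%). It was in 3 of 27 (11.1%) of the long-term stem cell list, 1 of 21 (4.76%) of the immediate early list and 1 of 18 (5.56%) of the erythroid list. Lcn2, lipocalin 2, which withholds iron from bacteria, had 1547, 1574, 1551 and 1569 CPM.

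Other myeloid lineages were represented by a few very high genes. Of 10 eosinophil genes 8 were present. Prg2, major basic protein of eosinophil granules, had 1217, 1175, 1201 and 1232 CPM, and Epx, eosinophil peroxidase, 457, 443, 439.9 and 458 CPM, with Prg3 at 40.4 ± 1.77 CPM. Of 19 mast cell and basophil genes 16 were present, led per length by the proteases Cma1 at 1382 ± 22.6 TPM, Tpsb2 at 1295 ± 17.9 TPM and Cpa3 at 589 ± 26.1 TPM. Cma1, mast cell chymase, had 656, 683, 676 and 657 CPM, and Tpsb2, a tryptase, 922, 925, 898 and 917 CPM. Monocyte and macrophage genes were present in 21 of 22, and in 12 at a bound of 5 CPM, with a median of 4.06 TPM. The adaptor genes Tyrobp at 617 ± 14.9 TPM and Fcer1g at 463 ± 18.8 TPM, shared by many myeloid cells, and Ly6c2 were the highest. Of 19 dendritic cell genes 12 were present, with Cd74, the class II gene H2-Ab1 at 225 ± 5.31 TPM and Bst2 at 175 ± 4.91 TPM first.

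Megakaryocyte and erythroid genes were mostly present. Of 23 megakaryocyte genes 20 were present, with a median of 29.8 TPM. Pf4, platelet factor 4, had 289, 283, 279 and 290.1 CPM, Itga2b is given above, and the collagen receptor gene Gp6 had no count. Of 25 erythroid genes 22 were present. Car2, carbonic anhydrase 2, had 1446, 1476, 1438 and 1467 CPM, Apoe 782, 728, 757 and 785 CPM and Car1 172, 181, 181 and 173 CPM. The adult beta globins Hbb-bt and Hbb-bs had 21.2 ± 0.892 CPM and 7.21 ± 0.572 CPM, the alpha globins Hba-a1 and Hba-a2 5.29 ± 0.604 CPM and 1.19 ± 0.188 CPM, and the band 3 gene Slc4a1 0.818 ± 0.538 CPM, all 5 chosen after their values were seen. The beta globin genes share 58.3 and 53.2% and the alpha globin genes 72.3 and 89.3% of their 50-base transcript windows with other genes, and how reads that fit several genes were counted is not given in the sources used here.

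Immunoglobulin genes took 7.41, 7.70, 7.37 and 7.31% of counts in replicates 1 to 4 (7.45 ± 0.175%). Of 12 constant genes 10 were present. Igha and Ighm are named after their values were seen. Within the heavy chain constant genes, Ighg1 took 98.4 ± 0.0366% of the counts, Igha 1.17 ± 0.0327% and Ighm 0.319 ± 0.0124%. Within the light chain constant genes, Igkc took 82.1 ± 0.350% and Iglc1 17.8 ± 0.348%. The variable segments were uneven as well. Of 113 heavy variable segments in the table, 11 held 1% or more of that class, led by Ighv14-2 with 32.3 ± 0.173% and Ighv1-81 with 24.7 ± 0.679%. Of 100 kappa segments, 13 did so, led by Igkv10-96 with 30.7 ± 0.893% and Igkv19-93 with 27.5 ± 0.660%. In each of the 4 libraries, which the design text calls biological replicates, the first and second segment of both classes were the same.

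Plasma cell genes were found beside them. Of 16 plasma cell genes 15 were present, with a median of 18.8 TPM and Ly6k without a count. Xbp1, the transcription factor of secretory cells, had 495, 505, 503 and 503 CPM, Jchain, which joins IgM and IgA, 235, 240.0, 238 and 224 CPM, and Txndc5, a folding enzyme of the endoplasmic reticulum, 394, 406, 401 and 402 CPM. Sdc1, or CD138, had 28.3 ± 1.66 CPM and Mzb1 50.2 ± 1.93 CPM, both chosen after their values were seen. Early lymphoid and B cell genes were present in 13 of 22 (59.1%), near the 52.9% of all protein-coding genes. At a bound of 5 CPM 4 were present, and the list median was 1.01 TPM. The B cell receptor signalling chain Cd79b was highest at 115 ± 5.10 TPM, before Cd37 at 94.2 ± 1.64 TPM and Cd79a at 37.4 ± 1.13 TPM. The part that B lineage cells had in the immunoglobulin counts was not tested.

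T cell and stroma genes had the lowest shares of present genes and the lowest medians among the lineage lists. Natural killer, endothelial, and early lymphoid and B cell genes lay near the 52.9% of all protein-coding genes that were present. T cell genes were present in 3 of 20, with a median of 0.228 TPM and summed levels of 104, 102.6, 100.3 and 104 CPM. The 3 were Lat, Lck and Cd247, signalling genes, at 65.4 ± 1.92 CPM, 26.9 ± 0.650 CPM and 2.73 ± 0.554 CPM, while the receptor constant gene Trac was low at 1.19 ± 0.318 CPM and Cd3e, Cd3g and Themis had no count in any library. The count depended on the bound, with 7 T cell genes at 0.5 CPM or more in each library and 5 at 1 TPM or more. Natural killer and innate lymphoid genes were present in 8 of 16 (50%), and in 5 at a bound of 5 CPM, led by Nkg7, granzyme B, Gzmb, at 108 ± 2.07 TPM, and Gata3 at 20.7 ± 0.420 TPM. Endothelial genes were present in 12 of 20 (60%). The stem cell list gene Esam led at 151 ± 5.26 TPM, before the receptor Tie1 at 98.03 ± 1.93 TPM and Egfl7 at 61.2 ± 1.26 TPM, whereas Cdh5, vascular cadherin, chosen after its value was seen, had 0.0585 ± 0.0728 CPM and Sox17 no count. Stroma genes were present in 5 of 21, and in 3 at a bound of 5 CPM, with a median of 0.0777 TPM. Pdgfrb, a receptor of pericytes, had 78.9, 81.4, 82.2 and 78.1 CPM, Runx2 42.7 ± 0.801 CPM and Vcam1 27.3 ± 0.979 CPM. Adipoq had no count, Ibsp had 0.0455 ± 0.00429 CPM, and Lepr, the leptin receptor of niche stroma, had 0.0125 ± 0.0250 CPM.

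**Figure D4:**
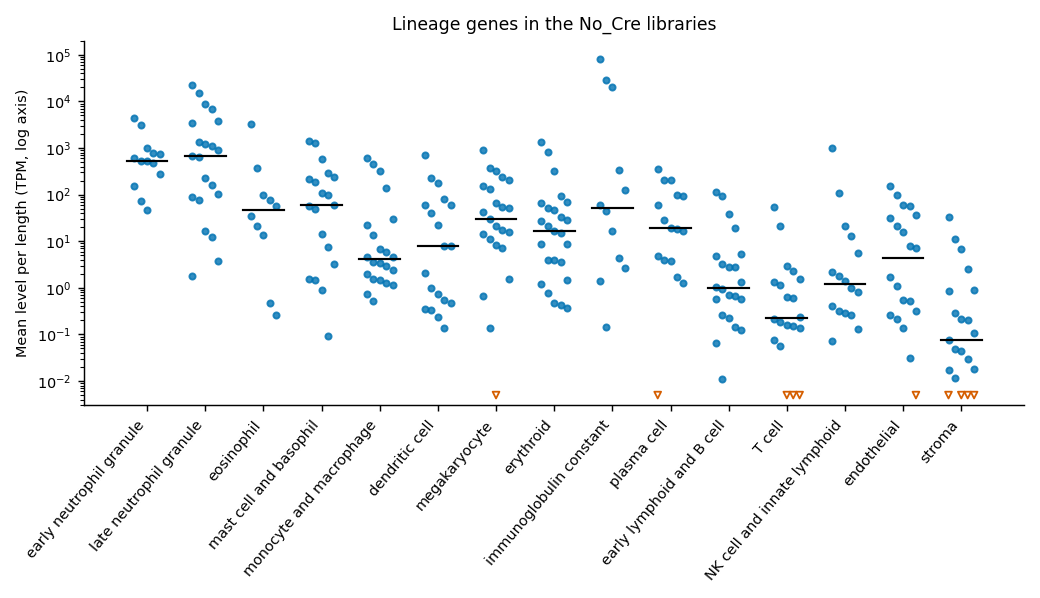
Mean level per length in TPM (y axis, log) of each gene of 15 lineage lists (x axis), averaged over the 4 No_Cre libraries. Black bars are list medians over all genes of the list, and open triangles at the foot stand for genes at or under 0.005 TPM, most of them without a count. The early and late neutrophil lists have the highest medians, and the T cell and stroma lists the lowest.

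Of 31 lineage transcription factors 24 were present. Nfe2, of megakaryocytes and erythroid cells, had 833, 849, 824 and 836 CPM and led per length at 630.4 ± 6.69 TPM, before Xbp1 at 348 ± 2.34 TPM and Spi1, the PU.1 factor of myeloid cells, at 239 ± 8.48 TPM. Spi1 had 296, 274, 284 and 288 CPM. Gata1, the erythroid and megakaryocyte factor, had 102.9, 101, 100.1 and 101 CPM, its partner Zfpm1 185 ± 10.7 CPM and Klf1, of erythroid cells, 31.6 ± 1.56 CPM. Among the C/EBP genes, Cebpb had 89.3, 77.6, 89.0 and 99.6 CPM, Cebpe, of late granule genes, 37.3, 37.2, 39.4 and 40.1 CPM, Cebpd 45.9 ± 3.34 CPM and Cebpa, of early granulocyte commitment, 3.82, 2.71, 3.91 and 4.30 CPM. Cebpa was thus the lowest of the 4 also per length, at 3.15 ± 0.597 TPM against 69.9 ± 2.89 TPM for Cebpe. Irf8, of monocytes and dendritic cells, had 17.7 ± 1.30 CPM, Klf4 10.8 ± 1.51 CPM, Mitf 4.04 ± 0.690 CPM, and the pan-lymphoid factors Ikzf1 and Tcf3 63.6 ± 4.27 CPM and 313 ± 23.6 CPM. Id1, Id2 and Id3, inhibitors of such factors, had 17.9 ± 1.26 CPM, 54.3 ± 1.95 CPM and 2.97 ± 0.181 CPM. Irf4 had 10.7 ± 0.735 CPM and Prdm1, which with Xbp1 makes plasma cells, 4.21 ± 0.522 CPM. The B cell factors Pax5 and Ebf1 were low with 0.575 ± 0.159 CPM and 1.14 ± 0.254 CPM, as were the T and natural killer factors Bcl11b with 0.559 ± 0.187 CPM, Eomes with 0.243 ± 0.147 CPM, Tbx21 with 0.0815 ± 0.0817 CPM and Foxp3 with 0.0250 ± 0.05003 CPM. Gata3 had 36.5 ± 0.605 CPM, Tcf7 6.84 ± 1.17 CPM and Ikzf3 1.79 ± 0.504 CPM.

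Of 30 genes of the niche axis 23 were present. Of the ligands that the niche makes, 3 were low or without a count in the sorted cells. Cxcl12 had 0.713, 0.292, 0.386 and 0.2001 CPM, Kitl, the Kit ligand, 0.0768 ± 0.0361 CPM, and Thpo, thrombopoietin, no count, while the ligand Angpt1 was present as given above. Of the receptors of Cxcl12, Cxcr4, which holds stem cells in marrow, had 23.5, 25.2, 24.8 and 25.1 CPM, and Ackr3 was absent, with 0.0125 ± 0.0250 CPM. Downstream of Cxcr4, the G protein Gnai2 had 1259, 1253, 1202 and 1247 CPM, and the small GTPases Rac2, Cdc42, Rac1 and Rhoa had 1006 ± 12.9 CPM, 410.3 ± 20.4 CPM, 349 ± 5.18 CPM and 165 ± 2.70 CPM. Per length, Cxcr4 stood at 30.7 ± 0.937 TPM, against 740.0 ± 16.5 TPM for Gnai2 and 236 ± 3.99 TPM for Kit.

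Adhesion receptors of the axis were present too. The integrin chains had 375 ± 9.32 CPM (Itgb2), 279.5 ± 5.24 CPM (Itgb1), 134 ± 3.24 CPM (Itgb7), 114 ± 4.95 CPM (Itgal), 112 ± 1.03 CPM (Itga5) and 34.3 ± 0.809 CPM (Itga4), the last a chain of the VCAM1 receptor. Selplg, the ligand of selectins, had 423 ± 13.5 CPM. Of the other chemokine receptors, Ccr2 had 3.44 ± 0.409 CPM and Cxcr3 1.92 ± 0.436 CPM, and Ccr7 and Ccr9 were low at 1.02 ± 0.104 CPM and 0.630 ± 0.173 CPM. Cdh2, N-cadherin, had 0.0571 ± 0.0705 CPM.

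Genes that carry the signal of BCR-ABL1 were present throughout, at 26 of 26 for proximal partners and 31 of 31 for STAT5 and RAS signalling, with medians of 34.96 and 32.6 TPM. Abl1 had 113, 119, 117 and 111 CPM and Bcr 21.7, 22.6, 24.2 and 27.2 CPM, both chosen after their values were seen, and whether reads of a fusion transcript were counted in them was not tested. The phosphatase Ptpn6, which opposes the kinase, led per length at 501 ± 10.4 TPM, before Akt1 at 312 ± 3.25 TPM and the adaptor Dok2 at 126 ± 2.57 TPM. Among the genes of STAT5 and RAS signalling, Myc led at 435 ± 21.3 TPM, before the kinases Jak3 at 143 ± 8.49 TPM and Jak1 at 140.5 ± 3.82 TPM. Myc had 526, 492, 530.2 and 549 CPM.

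Of 30 cytokine receptor genes 28 were present, with a median of 33.1 TPM. Per length, Kit stood at 236 ± 3.99 TPM and Il2rg, the common gamma chain, at 182 ± 5.79 TPM. Csf3r, the receptor of G-CSF, had 172, 168, 158 and 174 CPM, Csf2rb 148, 159, 146 and 146 CPM, Csf2rb2 25.6 ± 1.85 CPM and Csf2ra 72.2 ± 5.14 CPM, while Csf1r, of macrophages, had 9.21 ± 0.818 CPM and Epor, of erythroid cells, 29.4 ± 0.499 CPM. Il3ra, the alpha chain that pairs with Csf2rb2 and Csf2rb, had 10.7 ± 1.22 CPM. Interferon receptors had 195 ± 1.67 CPM (Ifngr1), 54.9 ± 2.56 CPM (Ifngr2), 93.9 ± 0.995 CPM (Ifnar1) and 121 ± 2.28 CPM (Ifnar2), and tumor necrosis factor receptors 152 ± 2.73 CPM (Tnfrsf1a) and 181 ± 4.80 CPM (Tnfrsf1b). Il4ra had 154 ± 5.30 CPM, Il10ra 51.1 ± 2.06 CPM, Il10rb 38.0 ± 1.07 CPM, Crlf2 68.6 ± 2.64 CPM, Il6st 37.5 ± 0.806 CPM, Il6ra 9.35 ± 0.882 CPM, Il1rl1 39.4 ± 1.43 CPM, Il1r1 28.7 ± 1.73 CPM, Il18r1 5.73 ± 0.549 CPM and Il13ra1 2.66 ± 0.356 CPM. Il5ra, of eosinophils, was low at 0.740 ± 0.321 CPM, as was Lifr at 0.892 ± 0.556 CPM.

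The developmental pathways differed in how many of their genes were present. TGF-beta genes were present in 25 of 27, led by the signal transducer Smad4 at 62.0 ± 1.67 TPM, the coreceptor Eng at 56.3 ± 3.03 TPM and the ligand Tgfb1 at 53.5 ± 2.91 TPM. Wnt genes were present in 23 of 32. Beta-catenin, Ctnnb1, had 402, 417, 412 and 403 CPM, Axin1 184 ± 3.98 CPM and Dvl1 55.5 ± 1.57 CPM, whereas the Wnt ligand Wnt3a and the inhibitor Dkk1 had no count and Wnt4 had 0.0104 ± 0.0208 CPM. Axin2, a common readout of active Wnt signalling chosen after its value was seen, was low with 0.0420, 0.0833, 0.145 and 0.2001 CPM. Notch and Hedgehog genes were present in 13 of 27, or 48.1%, beside 52.9% of all coding genes. The Hedgehog pathway genes Smo and Sufu stood at 34.7 ± 0.822 TPM and 28.0 ± 0.912 TPM and Notch2 at 21.8 ± 0.991 TPM, while Shh had no count and the Hedgehog effectors Gli2 and Gli3 had 0.0125 ± 0.0250 CPM and 0.0329 ± 0.0406 CPM. At a bound of 5 CPM, 12 Wnt genes and 8 Notch and Hedgehog genes were present.

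Inflammatory and interferon genes were present in most cases. NF-kB genes were present in 24 of 25, led by the inhibitor Nfkbia at 331 ± 11.5 TPM, the subunit Rela at 208 ± 3.32 TPM and Tnfaip2 at 93.4 ± 1.14 TPM. Of 33 interferon response genes 28 were present, with Ifitm3, Ifitm1 and Bst2 first per length, but the interferons Ifnb1 and Ifng had no count and Ifna1 had 0.0560 ± 0.0190 CPM. Class I and II genes of the histocompatibility complex were present in 20 of 20, with a median of 145 TPM. B2m, the light chain of class I, had 1737, 1775, 1808 and 1739 CPM and led per length at 4626 ± 76.7 TPM, before H2-D1 at 3106 ± 57.9 TPM and H2-K1 at 1703 ± 31.9 TPM. H2-D1 and H2-K1 share 12.8 and 9.63% of their 50-base windows with other genes. S1P genes were present in 11 of 12, with the exporters Spns2 at 242 ± 7.03 TPM and Mfsd2b at 70.0 ± 1.43 TPM and the lyase Sgpl1 at 36.6 ± 1.45 TPM, and S1pr5 without a count. Of 23 genes in the list of p53 and its targets 21 were present, led by Trp53 itself at 161 ± 3.19 TPM, Gadd45g at 103.4 ± 7.999 TPM and Bax.

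Immediate early genes, which cells switch on within minutes of a stimulus and also during dissociation and sorting, were present in 24 of 27. They took 2.67, 2.52, 2.63 and 2.75% of counts, with a median of 265 TPM. Per length Fos led at 6281 ± 187 TPM, before Jun at 3612 ± 220.0 TPM and Ier2 at 2529 ± 151 TPM. Ier2 had 1735, 1589, 1690.0 and 1815 CPM. Replicate 2 had the lowest and replicate 4 the highest share, and the same held for Jun and Fos. The part that handling of the cells had in these levels was not tested. RefSeq promoters were found for 21 of the 27 genes. The CArG box, the site of serum response factor, was in 2 of 21 (9.52%), those of Zfp36 and Srf, beside 1.57% of all promoters, and TATAAA in 5 of 21 (23.8%). The promoters of Fos (chr12:85473640-85473939, plus strand) and Zfp36 (chr7:28379179-28379478, minus strand), which stood among the 5 highest genes of the list, are shown 5′ to 3′ on the strand of the gene, with TATAAA and the CArG box of either strand in capitals.
Fos: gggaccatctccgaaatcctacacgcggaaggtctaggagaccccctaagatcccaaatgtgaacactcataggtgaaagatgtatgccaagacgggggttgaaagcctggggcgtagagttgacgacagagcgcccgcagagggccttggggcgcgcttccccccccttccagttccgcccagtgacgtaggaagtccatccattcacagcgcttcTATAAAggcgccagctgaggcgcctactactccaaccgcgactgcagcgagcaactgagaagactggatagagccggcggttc
Zfp36: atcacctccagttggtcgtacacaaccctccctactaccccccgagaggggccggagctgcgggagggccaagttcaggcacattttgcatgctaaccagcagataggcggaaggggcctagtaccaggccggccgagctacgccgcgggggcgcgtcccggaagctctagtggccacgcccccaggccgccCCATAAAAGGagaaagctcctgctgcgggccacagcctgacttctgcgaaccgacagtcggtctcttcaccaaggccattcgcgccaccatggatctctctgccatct

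The known serum response element of Fos lies further upstream than the window, so its absence here says only that those letters are not in these 300 bases.

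Glycolysis genes were present in 31 of 35, with a median of 32.4 TPM. Ldha, lactate dehydrogenase, had 1415, 1481, 1430.0 and 1388 CPM, Pkm, pyruvate kinase, 1279.8, 1247, 1229 and 1287 CPM, and Aldoa, aldolase, 706, 701, 678 and 691 CPM. Per length they stood at 973 ± 22.3 TPM, 568 ± 14.3 TPM and 537 ± 9.76 TPM. Slc2a4, the glucose transporter of muscle and fat, was absent at 0.0350 ± 0.0236 CPM. Gapdh, commonly among the most abundant genes of a cell, had only 51.4, 54.98, 56.1 and 56.6 CPM, and Pgk1 13.7, 14.4, 12.9 and 13.4 CPM, both chosen after their values were seen. These genes share 25.1 and 53.9% of their 50-base windows with other annotated genes, against 9.26% for Ldha and 6.43% for Aldoa. Pkm shares 25.8%, about as much as Gapdh, and stood far higher, at 568 TPM against 29.9 TPM for Gapdh. The part of shared reads in the levels of Gapdh and Pgk1 was not tested.

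Mitochondrial and redox genes coded in the nucleus were high. Of 28 genes of the tricarboxylic acid cycle 27 were present, with a median of 88.8 TPM and Sdhd at 524 ± 6.94 TPM, Idh2 at 448 ± 5.42 TPM and Mdh2 at 426 ± 8.60 TPM first. Of 43 nuclear respiratory chain genes 40 were present, with a median of 218 TPM. The ATP synthase subunits Atp5b and Atp5a1 led at 1154 ± 14.1 TPM and 1109 ± 10.4 TPM, before Cox6b1 at 1025 ± 23.9 TPM, and Cox8b, a muscle isoform, had no count. Atp5b had 2164, 2218, 2162 and 2132 CPM. Antioxidant genes were present in 25 of 27, with Gpx1 at 3959.9 ± 149 TPM, thioredoxin, Txn1, at 652 ± 13.6 TPM and the peroxiredoxin Prdx5 at 380.0 ± 8.16 TPM. Gpx1 had 2554, 2410.1, 2552 and 2607 CPM, while Gpx2, of the gut, had no count and Sod3 0.0346 ± 0.0457 CPM.

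Lipid, nucleotide and iron genes followed. Fatty acid genes were present in 27 of 34, led by Acadl at 251 ± 3.55 TPM, Elovl1 at 155 ± 2.27 TPM and Acsl5 at 124 ± 3.50 TPM, while Cpt1b, of muscle, and Ppara, the regulator of fat oxidation in liver, were absent at 0.0434 ± 0.0344 CPM and 0.0225 ± 0.0262 CPM. Cholesterol genes were present in 29 of 31, with the sensors Nr1h2 and Srebf2 at 104 ± 5.16 TPM and 96.3 ± 3.57 TPM, Ebp at 65.9 ± 5.37 TPM and Idi2 without a count. All 31 of 31 genes of one-carbon and nucleotide synthesis were present, led by Shmt2 at 226 ± 8.75 TPM, Paics at 221 ± 4.89 TPM and Mat2a at 167 ± 6.19 TPM. The pentose phosphate pathway had 9 of 10 genes present, with Taldo1 at 521 ± 19.7 TPM, Tkt at 273 ± 4.79 TPM and G6pdx at 194 ± 6.61 TPM. Heme and iron genes were present in 22 of 22, with ferritin heavy chain, Fth1, at 912 ± 14.2 TPM, Alad at 203 ± 6.12 TPM and Tfr2 at 160.5 ± 2.28 TPM.

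Stress-linked metabolism was also covered. Amino acid and ATF4 genes were present in 23 of 29, with the transporter chain Slc3a2 at 286 ± 4.72 TPM, Atf4 at 160.4 ± 3.40 TPM and Slc1a5 at 138 ± 2.91 TPM, and Fgf21 without a count. Polyamine genes were present in 13 of 15, led by the synthase Srm at 365 ± 7.30 TPM, Atp13a2 at 151 ± 3.18 TPM and Mtap at 77.1 ± 2.57 TPM. Hypoxia response genes were present in 18 of 20, with Ndrg1 at 95.8 ± 0.941 TPM, Egln2 at 92.1 ± 3.70 TPM and Meis1 first. Hif1a had 38.7 ± 1.93 CPM and Epas1, its relative, was low with 0.195 ± 0.203 CPM, both chosen after their values were seen. Chaperone genes were present in 28 of 29, with a median of 149 TPM and Hsp90ab1 at 1252 ± 26.9 TPM, P4hb at 775 ± 6.42 TPM and Calr at 683 ± 11.7 TPM, of which P4hb and Calr work in the endoplasmic reticulum.

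Genes of the cytosolic ribosome and of the mitochondrial genome were uneven, and are given beside the sequence they share with other genes. Of 77 ribosomal protein genes 75 were present, and together they took 0.971, 0.940, 0.968 and 0.981% of counts. Their levels ran from 0.930 ± 0.305 TPM for Rpl24, named after its value was seen, to 1356 ± 31.2 TPM for Rpl4, although the ribosome holds nearly all of these proteins in equal number. Rpl32 stood at 1213 ± 59.7 TPM and Rpl8 at 1109 ± 19.95 TPM. Here and above, windows of 50 bases along each gene's transcripts were compared with the transcripts of all other annotated genes, pseudogenes included. Both strands of those transcripts were read, so a window that overlaps an antisense gene also counts as shared. The 13 ribosomal genes with 10% or less of their windows shared had a median of 87.5 TPM, all 70 genes with under 50% shared 34.2 TPM, and the 7 genes with at least 50% shared 22.1 TPM. Each group was wide, at 1.54 to 1356 TPM for the 70 genes and 0.930 to 805 TPM for the 7 genes, of which Rplp1, chosen after its value was seen, was the highest.

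Of 15 mitochondrially encoded genes 9 were present and 6 had no count in any library. The 6, named in full after their values were seen, were mt-Atp6, mt-Atp8, mt-Co2, mt-Co3, mt-Nd3 and mt-Nd4l. Of these, 5 share nearly all of their windows with another annotated gene, at 100% for mt-Co2, 99.9% for mt-Co3, 99.5% for mt-Atp6, 98.8% for mt-Nd4l and 97.99% for mt-Nd3. The other, mt-Atp8, shares 0%, and its end overlaps the start of mt-Atp6 on the mitochondrial genome. Among the genes that were present, mt-Cytb led per length at 899 ± 70.4 TPM and shares 0%, before mt-Nd1 at 419 ± 28.6 TPM and mt-Co1 at 403 ± 46.7 TPM, of which 51.1% is shared. mt-Cytb had 485, 473, 466 and 403 CPM, with the lowest value in replicate 4. The 15 genes together took 0.142, 0.139, 0.135 and 0.117% of counts, a share that comes from the 9 present ones. Treatment of reads that match several places is not given in the sources used here, and its part in these levels was not tested.

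**Figure D5:**
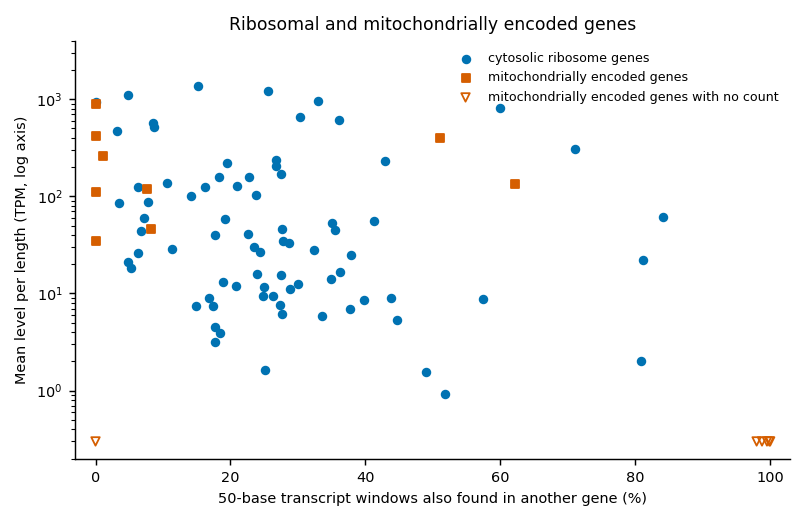
Share of a gene's 50-base transcript windows also found in another annotated gene (x axis, percent) and mean level per length in TPM over the 4 No_Cre libraries (y axis, log), for 77 cytosolic ribosome genes and 15 mitochondrially encoded genes. Open triangles at the foot are the 6 mitochondrially encoded genes with no count, of which 5 lie at 97.99% shared or more.

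Genes used as markers of other tissues were mostly absent, although Krt18 and Mbp stood above 98.2 and 73.4% of present protein-coding genes per length. Of 21 such genes 4 were present (19.0%), beside 52.9% of all protein-coding genes, and 10 had no count. The 4 were the keratin Krt18 with 244, 236, 235 and 243 CPM, the myelin gene Mbp with 159.8, 166, 167 and 163 CPM, Epcam with 26.7, 26.9, 24.5 and 25.1 CPM and Cdh1, E-cadherin, with 2.71 ± 0.331 CPM. Krt8, the usual partner of Krt18 and chosen after its value was seen, had 0.357 ± 0.134 CPM, Alb and Ins1, of liver and pancreas, had no count, and Fabp1, of liver, had 0.0105 ± 0.0210 CPM. Of the sex-linked genes, the Y-linked Eif2s3y had 30.1, 31.4, 33.3 and 27.0 CPM, Ddx3y 24.1, 21.6, 24.7 and 22.6 CPM and Uty 10.9 ± 1.85 CPM. Xist, transcribed from the inactive X chromosome and chosen after its value was seen, had 1.68, 1.62, 1.74 and 1.70 CPM. Among genes typed as long noncoding in the annotation, Gm26917 (chr17:39843013-39846341) was first with 1821, 1547, 1769.6 and 1934 CPM. Malat1 had 93.4, 95.9, 78.5 and 87.6 CPM, and both were chosen after their values were seen. Whether the reads of Gm26917 came from a long noncoding transcript was not tested.

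The spread between the 4 libraries was small, and larger than counting error alone. Among 9192 genes with a mean of 10 CPM or more, the median coefficient of variation was 4.10%, and counting alone gives 2.99%. It was under 10% for 8743 of them (95.1%) and reached 25% for none. The 10 most variable genes were Apc2, Uvssa, Prkce, Il12rb2, Crebl2, Phf19, Jade2, Apbb1, Fadd and Zfp69, with coefficients of 24.7% for Apc2 to 17.7% for Zfp69. Apc2, a relative of the Wnt regulator Apc, had 14.8, 11.6, 14.03 and 20.5 CPM, and replicate 4 stood highest. Il12rb2, a chain of the interleukin 12 receptor, had 8.22, 10.5, 13.2 and 10.4 CPM, and Phf19, a polycomb partner, 12.6, 10.2, 10.7 and 15.3 CPM. All 10 had a mean under 20 CPM, and none but Phf19 was in a list of stem cell, lineage, signalling or metabolic genes.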

How the data were processed

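RNA was sequenced from sorted leukemic LTHSC, and the 4 No_Cre columns of the authors' deposited table of raw counts per gene were used; the 8 columns of other groups were not. Per the submitters' processing notes, which give no roles or order, the tools were HTSeq 0.9.1, STAR 2.5.3a, DESeq2 1.18.1 and Trim Galore 0.4.4, and the build was GRCm38. The annotation release, the strand setting, filters and the treatment of reads that match several places are not given in the sources used here. Without strand, reads of overlapping or antisense genes cannot be told apart.

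Symbols, gene types and union exon lengths came from GENCODE M21 for 48435 of 48795 identifiers, and the 360 others held 0.0140% of counts. CPM are counts over the library total, and TPM are counts per union exon length, rescaled; both were computed here. Present, low and absent genes were counted without a test, since only 1 group was described. The spread between libraries was estimated with edgeR 4.0.16 in R 4.3.3 (common dispersion, intercept only). Levels, presence and spread were tested on simulated counts with known answers. Counting limits treat reads as independent molecules, which amplified reads without molecular identifiers are not.

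The 58 gene lists held 1287 genes, of which 1286 matched (4 older or newer symbols through RefSeq synonyms are among them). Lists and members were chosen with earlier results of these data known. Named genes are the 20 highest by CPM and by TPM with pseudogenes left out, the 5 markers, the 3 highest members per length and up to 3 absent members of each list, the 10 most variable genes, and any member of 7 lists, which are the stem cell, stem cell factor, sort marker, leukemic antigen, lineage factor, cytokine receptor and niche lists; a few genes that the rule names are not reported here. Promoters are from RefSeq (GRCm38.p6). The search for shared 50-base windows and the promoter motifs were chosen after the values were seen. Alternatives tried were other bounds, TMM factors, DESeq2 1.42.0 size factors, totals without immunoglobulin genes, other lengths and ranks, and leaving out each library. Plots were drawn with matplotlib 3.10.9.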

Additional observations from a re-analysis of the deposited data

Results flagged for a closer look

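In 24 of 424 values looked at (library shares, summed list levels and named genes with at least 40 counts over the 4 libraries), 1 library lay far from the other 3, with a gap beyond Dixon's limit (95%) for 4 samples. Chance alone does so in about 1 of 20 groups of 4. Replicate 2 was the library apart in 10 of the 24, replicate 3 in 5, replicate 4 in 5 and replicate 1 in 4.

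In replicate 2 the share of noncoding genes was lowest at 0.637%, against 0.668 to 0.674% in the other 3. Gm26917, the highest of these genes, was lowest there too, at 1547 CPM against 1769.6 to 1934 CPM. The share of rRNA genes was also lowest there, at 0.0523% against 0.0564 to 0.0593%, and neither was flagged by this measure. The S phase genes summed to 8013 CPM in replicate 2, against 7914 to 7921 CPM, the TCA cycle genes to 6508 CPM, against 6271 to 6301 CPM, and the hypoxia response genes to 1110.1 CPM, against 1119.6 to 1122 CPM. Single genes with replicate 2 highest were Hsp90ab1 at 1729 CPM, Ighj2 at 370.3 CPM, Ndrg1 at 286 CPM, Trpc6 at 42.7 CPM and Fcgr2b at 29.03 CPM, and Hlf was lowest there at 85.1 CPM.

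In replicate 4, mt-Co1 was lowest at 227 CPM, against 290.4 to 294 CPM in the other libraries, and mt-Cytb, not flagged by this measure, was lowest there too. Ighm was lowest at 101 CPM, and Srebf2 at 322 CPM, Nkx2-3 at 68.4 CPM and Thy1 at 4.75 CPM were highest. In replicate 3, NF-kB genes summed to 2030.1 CPM, the lowest, against 2057 to 2060.4 CPM, Mdh2 was lowest at 654 CPM, and Fth1 at 1437 CPM, Rbbp4 at 414 CPM and Il7r at 2.27 CPM were highest. In replicate 1, amino acid and ATF4 genes summed to 2362 CPM, the highest, against 2335 to 2337 CPM, Slc3a2 was highest at 457 CPM, Itga4 lowest at 33.1 CPM and Lifr highest at 1.72 CPM, against 0.530 to 0.666 CPM. Most of these gaps are small in size, and no cause was tested.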

How the results depend on the processing

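No paired analysis was possible because only 1 group was described and no comparison between groups was made. The number of present genes was 12215 at the bound of 1 CPM, 10211 at 5 CPM, 13183 at 0.5 CPM, 12227 with TMM or DESeq2 factors and 12220 at 1 TPM. Of the genes in lists, 1092 were present, and 966 to 1137 under the other bounds. The share of the 20 most abundant genes was 12.3%, and 7.87% without immunoglobulin genes; the 100 most abundant took 22.2%. The biological coefficient of variation ranged from 3.24 to 3.78% when each library was left out in turn. A total without immunoglobulin genes raised all CPM by a common factor, which exceeded the SD of 288 of 379 named levels, while TMM factors moved none by more than its SD; leaving out 1 of 4 libraries cannot move a mean by that much, so it is no check of the levels. Ranks depended on length. Mecom ranked 5717 by TPM, 4214 by TPM on the longest transcript and 2351 by CPM, and Kit 482, 343 and 74. Without genes under 200 bases, a choice made after the data were seen, Mecom ranked 5684 and Kit 471. Of 58 lists, 6 had a count of present genes more than 1.5 times lower at 5 CPM (12 monocyte, 4 B cell, 5 natural killer, 3 stroma, 12 Wnt, 8 Notch and Hedgehog genes), and T cell genes numbered 7 at 0.5 CPM and 5 at 1 TPM. At this depth, levels under 0.125 to 0.150 CPM could not be told from a count of 0, and genes with near-identical copies have levels that depend on counting rules not given here.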
